A study of Mus musculus with 24 samples.

Results

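The genes Pdgfra, Cspg4, Olig1, Olig2, Sox10, Gpr17, Bcas1 and Enpp6 were examined in the brains of 24 mice. These 8 genes are expressed along the oligodendrocyte lineage, from the precursor cell to the oligodendrocyte that is forming myelin, some of them beyond it. They were taken by name from a table of 54532 genes, in which each of the 8 names stood on 1 row. All 8 were among the 27286 genes that entered the tests, those with a value above 0 in at least 6 mice. Every mouse was a male wild-type C57Bl6, and each group held 6 mice. For 2 weeks an implanted osmotic pump delivered either saline, the vehicle, or angiotensin II at 0.7 mg per kg per day, a hormone that constricts vessels and raises blood pressure. Mice of the other 2 groups received the same infusions together with amnion epithelial cells (AEC), human cells from the placental membrane that were injected into a tail vein. Mice without AEC had saline injected there instead. The groups are called Vehicle, Angiotensin II, Vehicle + AEC and Angiotensin II + AEC. A brain hemisphere holds neurons, glia and vessels, so fewer cells of the lineage and less RNA per cell cannot be told apart in these data.

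Oligodendrocyte precursor cells divide and spread through the adult brain, and some leave the cell cycle, pass through a short committed stage and become myelinating oligodendrocytes. Pdgfra encodes the receptor for platelet-derived growth factor AA, which keeps precursors dividing, and Cspg4 encodes the NG2 proteoglycan on their surface. Olig1, Olig2 and Sox10 encode transcription factors that are kept throughout the lineage, Gpr17 encodes a receptor of the committed stage, and Bcas1 and Enpp6 are expressed in oligodendrocytes that are forming myelin, Bcas1 also in myelin itself. Outside the lineage, Pdgfra is found in fibroblasts of the vessel wall and meninges, Cspg4 in pericytes and Sox10 in Schwann cells.

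Promoter sequences from RefSeq (GRCm38.p6, 250 bases before and 50 after the annotated start) were at hand for 4 of the 8 genes. Those of Pdgfra and Olig2 are shown because these genes had the largest differences, in opposite directions, in the comparisons that follow. Capitals mark matches to CANNTG, the E-box letters that basic helix-loop-helix factors such as the OLIG proteins read, or to TATAAA, both searched on both strands. The Pdgfra sequence is chr5:75152001-75152300 and that of Olig2 is chr16:91225300-91225599, both on the + strand.
Pdgfra: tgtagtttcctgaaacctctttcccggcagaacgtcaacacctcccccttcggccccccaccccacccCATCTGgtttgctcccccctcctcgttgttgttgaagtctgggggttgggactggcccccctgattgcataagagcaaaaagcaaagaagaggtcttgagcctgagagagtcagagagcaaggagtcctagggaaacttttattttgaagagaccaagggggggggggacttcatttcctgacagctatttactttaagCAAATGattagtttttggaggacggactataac
Olig2: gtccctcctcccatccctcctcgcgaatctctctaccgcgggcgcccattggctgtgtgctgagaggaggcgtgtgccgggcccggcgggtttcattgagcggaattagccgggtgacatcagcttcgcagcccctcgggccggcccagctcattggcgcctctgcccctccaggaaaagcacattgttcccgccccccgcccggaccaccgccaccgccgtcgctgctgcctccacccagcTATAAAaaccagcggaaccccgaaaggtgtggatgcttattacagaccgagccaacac

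The Pdgfra promoter held 2 matches to CANNTG, and 72.3% of 32851 mouse promoters of this length held at least 1. The Olig2 promoter held no CANNTG and 1 match to TATAAA, which 13.6% of promoters held. Neither had a match to ACAAAG, letters of the core read by SOX factors and found in 18.7% of promoters, and the promoters of Cspg4 and Enpp6 held none of the 3 motifs. GC content was 51.0% in the Pdgfra promoter and 65.0% in that of Olig2, against a median of 52.7% over all promoters. A match is a description of the letters only.

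In the GRCm38 build, the precursor genes lie at chr5:75152292-75198215 on the + strand (Pdgfra) and chr9:56865033-56899870 on the + strand (Cspg4). Olig2 at chr16:91225457-91228677 and Olig1 at chr16:91269772-91271933 are neighbours on the + strand, 41.09 kb apart. Sox10 is at chr15:79154908-79165240 on the - strand, Gpr17 at chr18:31942997-31949636 on the - strand, Bcas1 at chr2:170346991-170427845 on the - strand and Enpp6 at chr8:46986887-47096762 on the + strand. Exons of 4 of the genes share bases with other annotated genes, most of them on the opposite strand. Pdgfra shares 456 bases with Gm42802 and 166 with Gm42803, Bcas1 shares 440 with Bcas1os1, Gpr17 shares 188 with Lims2 and Olig1 shares 157 with Gm15966. It is not stated whether the counting used strand, so reads from these stretches cannot be assigned with certainty.

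All values are FPKM, fragments counted on a gene after division by its length and by the library total. The length is that of all exonic bases of the gene, so the order of levels rests on it. It is 3775 bases for Bcas1, 10024 for Pdgfra and 11931 for Cspg4, whose longest coding transcripts have 2952, 6834 and 8121. For Olig1 both lengths are 2162. Averaged over the 24 mice, the genes fell into 3 levels. Olig1 (66.5 FPKM) and Bcas1 (65.7 FPKM) were highest, at the 97.5 and 97.4 percentiles of the tested genes. Sox10 (26.0 FPKM), Olig2 (18.5 FPKM) and Gpr17 (9.54 FPKM) came next. The lowest were Pdgfra (3.20 FPKM), Cspg4 (1.82 FPKM) and Enpp6 (1.41 FPKM), which still rested on at least 309, 328 and 136 reads in each mouse.

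Some neighbours in this order did not differ beyond their spread. Olig1 exceeded Bcas1 in 13 of 24 mice, so their order was not fixed with the lengths used. Bcas1 lay above Sox10, and Gpr17 above Pdgfra, with no overlap between their ranges over the mice. Sox10 exceeded Olig2, Olig2 exceeded Gpr17 and Cspg4 exceeded Enpp6 within all 24 mice, although the ranges of each pair overlapped between mice. Pdgfra and Cspg4 changed places: Pdgfra was the higher in 18 mice and Cspg4 in the other 6.

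Those 6 mice were the ones whose libraries stood apart from the rest. Their FPKM values summed to 338334 to 348597 over all genes, against 277116 to 298301 in the other 18, and mitochondrial genes held 6.17% to 6.85% of their fragments against 4.79% to 5.75%. They were replicates 5 and 6 of Vehicle, 5 of Angiotensin II, 6 of Vehicle + AEC, and 5 and 6 of Angiotensin II + AEC, and the labels name no such set. Total fragments were 16536449 to 25308700 per mouse and did not separate the sets. Neuronal transcripts such as Snap25 (mean 288 FPKM) were abundant in every mouse, and the Schwann cell transcription factor Foxd3 reached at most 0.235 FPKM.

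**Figure D1:**
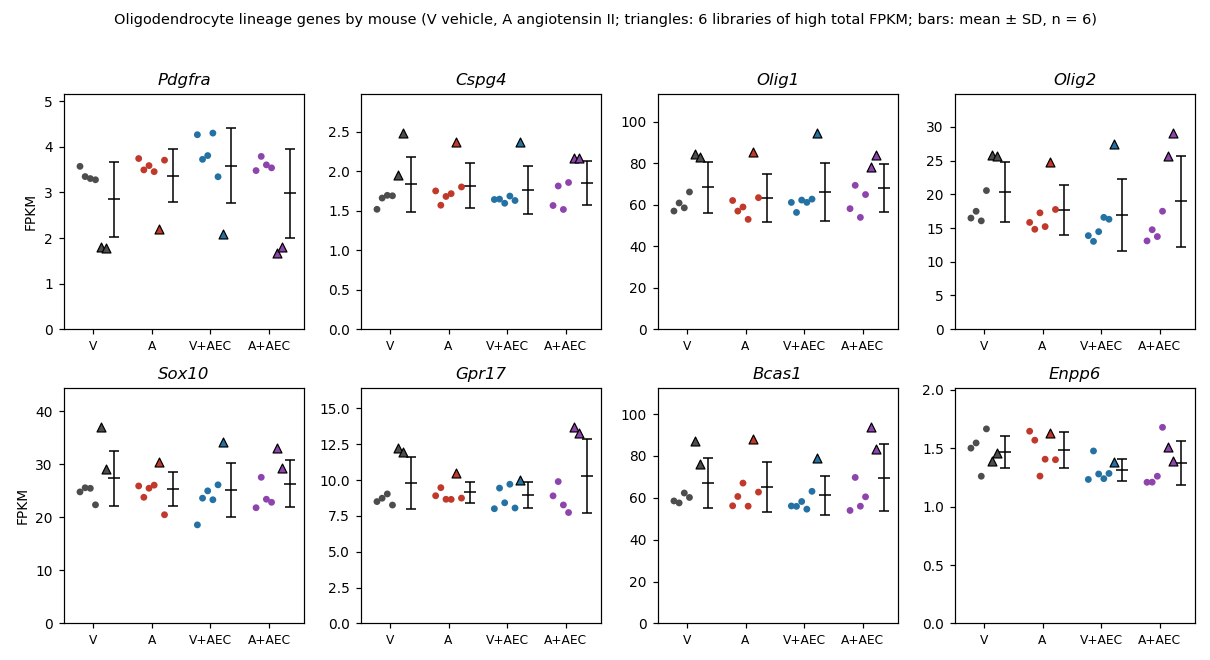
FPKM (vertical axis, from 0) of each of the 8 genes in the 24 mice, by group (V vehicle, A angiotensin II), with the mean and SD of the 6 mice of each group beside the points. Triangles are the 6 libraries of high total FPKM, which hold the lowest Pdgfra values, 1.66 to 2.20 FPKM, and the highest Olig2 values, 24.8 to 29.1 FPKM.

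Pdgfra was about 2 times lower in the 6 libraries than in the other 18, and the transcription factor genes, Cspg4, Gpr17 and Bcas1 were higher. Pdgfra was 1.66 to 2.20 FPKM in the 6 libraries (median 1.80) and 3.28 to 4.30 FPKM in the other 18 (median 3.58). Olig2 was 24.8 to 29.1 FPKM in the 6 (median 25.7) and 13.02 to 20.6 FPKM in the 18 (median 15.9). For both genes the sets did not overlap, and the directions were opposite. Olig1 was 78.3 to 94.5 FPKM against 52.9 to 69.4 FPKM, and Sox10 was 29.1 to 37.0 FPKM against 18.6 to 27.5 FPKM. The committed-stage receptor Gpr17 was 10.03 to 13.7 FPKM against 7.74 to 9.89 FPKM, and Bcas1 was 76.0 to 93.6 FPKM against 54.0 to 69.7 FPKM. Cspg4, the other precursor gene, was 1.95 to 2.48 FPKM against 1.52 to 1.86 FPKM, so it moved against Pdgfra. Enpp6 was the exception with 1.38 to 1.63 FPKM within 1.21 to 1.68 FPKM, the range of the other 18.

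With the library set as a term beside the 4 groups, limma on log2(FPKM + 0.1) gave a difference of -0.88 for Pdgfra (SE 0.049, adjusted p = 4.20e-13) and 0.73 for Olig2 (SE 0.069, adjusted p = 2.86e-09) on the log2 scale. Bcas1 differed by 0.50 (SE 0.048), Olig1 by 0.49 (SE 0.047), Gpr17 by 0.43 (SE 0.057), Sox10 by 0.42 (SE 0.067) and Cspg4 by 0.42 (SE 0.054). Enpp6 differed by 0.06 (95% interval -0.09 to 0.22, adjusted p = 0.497 in limma). Of the 8 genes, 6 were higher and 1 lower at an adjusted p under 0.05, where 22.3% of all tested genes were higher and 31.0% lower, 53.3% in either direction. The median difference was 0.42 over the 8 genes and -0.07 over all tested genes. The sets did not overlap for 7 of the 8 genes, against 27.5% of the tested genes and 51.0% of those with a mean of at least 1 FPKM.

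The differences held inside each treatment group. Angiotensin II and Vehicle + AEC hold 1 of the 6 libraries each, so their ratios rest on 1 mouse. The ratio of the mean of the 6 libraries to that of the others ran from 0.480 to 0.611 across the 4 groups for Pdgfra and from 1.46 to 1.85 for Olig2. It ran from 1.32 to 1.56 for Olig1, 1.28 to 1.44 for Cspg4, 1.25 to 1.47 for Sox10 and 1.37 to 1.47 for Bcas1. Gpr17 was less even, with 1.55 in Angiotensin II + AEC, 1.40 in Vehicle, 1.18 in Angiotensin II and 1.15 in Vehicle + AEC. Its lower ratios were those of the groups with 1 such library. For Enpp6 the ratio lay on either side of 1, from 0.954 to 1.12.

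**Figure D2:**
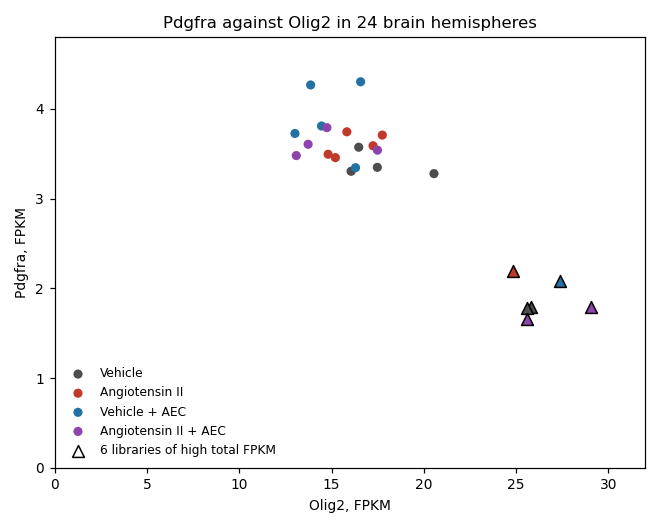
Pdgfra (vertical axis, FPKM) against Olig2 (horizontal axis, FPKM) in each of the 24 mice, with colours for the groups and triangles for the 6 libraries of high total FPKM. The triangles form a cluster of their own at Olig2 values of 24.8 FPKM and above and Pdgfra values of 2.20 FPKM and below.

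Some ratios between the genes within a mouse separated the library sets, and others overlapped. Pdgfra to Olig2 was 0.0618 to 0.0885 in the 6 libraries and 0.160 to 0.308 in the other 18, and Gpr17 to Pdgfra was 4.78 to 8.22 against 1.88 to 2.73. Gpr17 to Bcas1 was 0.120 to 0.159 in the 6 (median 0.143) and 0.128 to 0.178 in the 18 (median 0.145), and these ranges overlapped. Bcas1 to Enpp6 was 52.0 to 62.6 (median 58.7) against 34.1 to 57.6 (median 44.2), ranges that overlapped as well.

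Other lists of the lineage held genes that were higher and genes that were lower. Of the 14 OPC-enriched genes, 6 were higher and 7 lower in the 6 libraries at an adjusted p under 0.05. C1ql1, a secreted precursor protein, differed by 0.75 and the matrix protein gene Tnr by -1.42 on the log2 scale. Of 12 mature myelin genes, 7 were higher and 2 lower: Cnp (0.66), Mag (0.56) and Mbp (0.55) were among those higher, and Ermn (-0.34) and Mal (-0.18) were lower. Committed precursor and newly formed oligodendrocyte genes counted 2 higher and 5 lower of 12, transcriptional drivers of differentiation 2 and 5 of 9, inhibitors of differentiation 4 and 4 of 8, and PDGF ligands with the other PDGF receptor 2 and 2 of 5. The medians of these 6 lists ran from -0.12 to 0.25, below the 0.42 of the 8 genes.

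Markers of other cells moved with the library set as well. Of 9 mural cell markers 6 were higher and 1 lower, and of 8 fibroblast markers 6 were higher and 0 lower. Median log2 differences were 0.50 for mural, 0.37 for fibroblast and 0.34 for neuron markers, near the 0.42 of the 8 genes. They were 0.23 for Schwann cell, -0.01 for microglia and -0.24 for astrocyte markers. The mural list summed to 120 to 137 FPKM in the 6 libraries and 69.3 to 86.9 FPKM in the 18, and the fibroblast list to 23.6 to 29.3 FPKM against 16.4 to 20.1 FPKM. Pdgfra, a gene of fibroblasts as well as of precursors, was low where the fibroblast list was high, and Cspg4 was high where the mural list was high. Counts were 2 higher and 4 lower of 6 for astrocytes, 4 and 2 of 6 for neurons, 3 and 3 of 6 for microglia and 1 and 1 of 4 for Schwann cells. The astrocyte list summed to 235 to 265 FPKM in the 6 libraries and 259 to 303 FPKM in the 18, the neuron list to 1064 to 1156 FPKM against 896 to 971 FPKM, the microglia list to 131 to 148 FPKM against 102 to 117 FPKM, and the Schwann list to 1.30 to 14.4 FPKM against 0.848 to 5.03 FPKM. Of these 6 marker lists, no gene had a mean of 0 in either set. The part of other cell types in the values of the 8 genes was not tested.

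**Figure D3:**
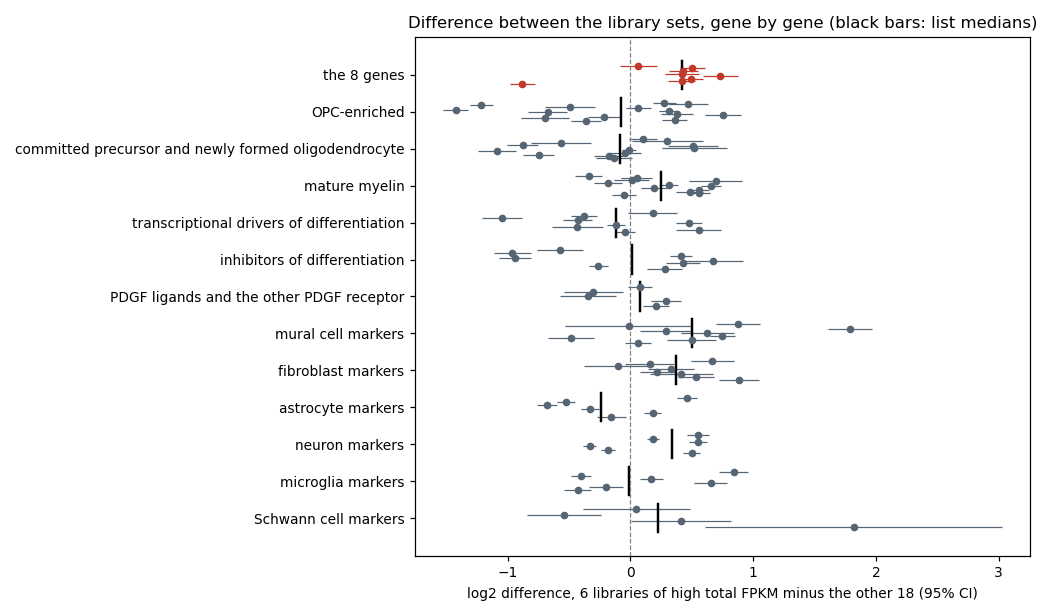
Log2 difference between the 6 libraries of high total FPKM and the other 18 (horizontal axis, limma, with 95% intervals) for each gene of the 13 lists on the vertical axis, the 8 genes in red and list medians as black bars. Every list has genes on both sides of 0, and Pdgfra at -0.88 lies apart from the other 7 of the 8 genes, which lie between 0.06 and 0.73.

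GC content and transcript length moved with the library set over all genes. Among 13633 genes with a mean of at least 1 FPKM, the median log2 difference was -0.34, -0.35, -0.12, 0.19 and 0.38 in 5 bins of equal size from the lowest to the highest GC content. The longest coding transcripts of Sox10 (61.8%), Olig1 (61.1%), Cspg4 (59.2%) and Olig2 (58.5%) fall in the highest bin. These 4 genes were all higher in the 6 libraries, as were 83.9% of the genes of that bin. Gpr17 has 53.4% and Bcas1 50.9%, Pdgfra 48.1% and Enpp6 42.3%. Enpp6 falls among the genes of lowest GC content, of which 20.6% were higher in the 6 libraries. Pdgfra lay below the lower quartile of its bin (-0.65), and Olig2 above the upper quartile of its bin (0.56). Over the same genes, the log2 difference had a Spearman correlation of 0.48 with GC content and of -0.56 with transcript length, given as a description across genes of the same libraries. The longest coding transcript has 8121 bases for Cspg4, 6834 for Pdgfra, 5195 for Gpr17, 4970 for Enpp6, 2952 for Bcas1, 2780 for Sox10, 2530 for Olig2 and 2162 for Olig1. Cspg4, with the longest of the 8, was higher in the 6 libraries and Pdgfra, with the next longest, was lower. The parts of GC content and of transcript length in the values of the 8 genes were not tested.

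**Figure D4:**
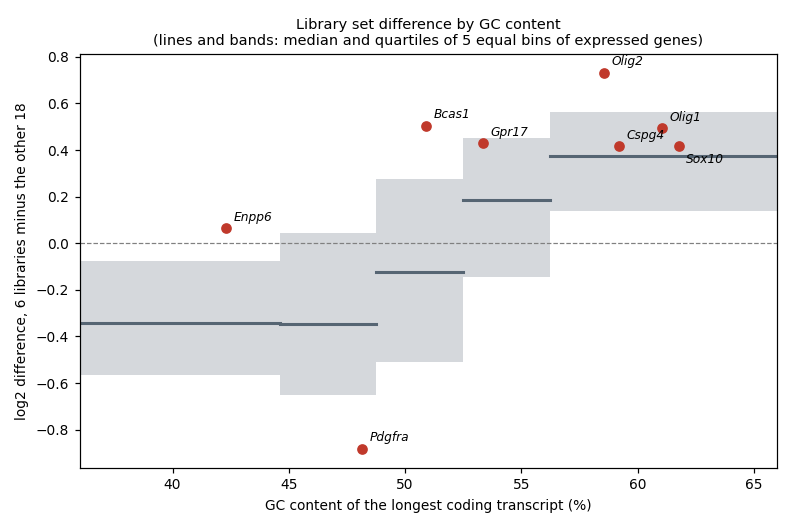
Log2 difference between the 6 libraries and the other 18 (vertical axis) against GC content of the longest coding transcript in percent (horizontal axis) for the 8 genes, with the median (line) and quartiles (band) of each of 5 bins of 13633 genes. The medians rise from -0.34 in the lowest bin to 0.38 in the highest, and Pdgfra (-0.88) lies below its band.

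The treatment comparisons asked whether angiotensin II, AEC or their combination moved the lineage. None of the 8 genes differed between any pair of groups at an adjusted p under 0.05 in limma. The same was true of all tested genes: 0 of 27286 passed in each of the 5 comparisons when all 24 mice were fitted. At an unadjusted p under 0.05, 0 of the 8 genes passed in any of the 5 comparisons of this fit. The share of all tested genes with an unadjusted p under 0.05 was 2.21% for Angiotensin II against Vehicle, 2.54% for Angiotensin II + AEC against Angiotensin II, 2.41% for Vehicle + AEC against Vehicle, 2.66% for Angiotensin II + AEC against Vehicle + AEC, and 2.54% for the interaction of angiotensin II and AEC. By the exact permutation test of 6 against 6 mice, 1 of 32 comparisons of single genes had a p under 0.05. Since the comparisons share groups, the values of a gene in them are not independent.

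The precursor gene Pdgfra ran from 1.78 to 3.57 FPKM in Vehicle (median 3.29), from 2.20 to 3.75 in Angiotensin II (median 3.54), from 2.08 to 4.30 in Vehicle + AEC (median 3.77) and from 1.66 to 3.79 in Angiotensin II + AEC (median 3.51). The groups overlapped, and the low end of each was set by the 6 libraries. Against Vehicle, Pdgfra was 1.21-fold (95% interval 0.863 to 1.68) with angiotensin II and 1.27-fold (0.909 to 1.77) with AEC. The interaction was -0.57 on the log2 scale (SE 0.329, unadjusted p = 0.0986, adjusted p = 0.931 in limma), the lowest unadjusted p of any of the 8 genes in the 5 comparisons. Cspg4, its partner as a precursor marker, had medians of 1.69, 1.73, 1.65 and 1.84 FPKM in the same order of groups. The log2 fold changes of Cspg4 lay between -0.05 and 0.07, with 95% limits for the pairs of groups from -0.32 to 0.33.

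Among the transcription factor genes, Olig2 ran from 16.1 to 25.8 FPKM in Vehicle (median 19.0), from 14.8 to 24.8 in Angiotensin II (median 16.5), from 13.02 to 27.4 in Vehicle + AEC (median 15.4) and from 13.1 to 29.1 in Angiotensin II + AEC (median 16.1). Vehicle had the highest median, but every group overlapped the others. Olig2 was 0.28 lower in Vehicle + AEC than in Vehicle on the log2 scale (log2 fold change -0.28, SE 0.203, unadjusted p = 0.180 in limma). Olig1 had group medians of 63.5, 60.5, 61.7 and 67.1 FPKM and Sox10 of 25.5, 25.7, 24.3 and 25.5 FPKM, in the order Vehicle, Angiotensin II, Vehicle + AEC and Angiotensin II + AEC. Neither gene had an unadjusted p below 0.353 in limma in any of the 5 comparisons.

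Of the remaining genes, Gpr17 had medians of 8.88, 8.82, 8.93 and 9.40 FPKM in the same order. Bcas1, which is also expressed in myelin itself, had medians of 61.2, 61.7, 57.2 and 65.1 FPKM. Neither passed the test in any comparison, the lowest unadjusted p being 0.186 for Gpr17 and 0.255 for Bcas1 in limma. Enpp6, the gene least touched by the library set, ran from 1.26 to 1.67 FPKM in Vehicle (median 1.48), from 1.26 to 1.65 in Angiotensin II (median 1.49), from 1.23 to 1.48 in Vehicle + AEC (median 1.28) and from 1.21 to 1.68 in Angiotensin II + AEC (median 1.32). It was 1.32 ± 0.0950 FPKM in Vehicle + AEC and 1.47 ± 0.138 FPKM in Vehicle (SD, n = 6), which gave p = 0.0498 in the two-sided exact permutation test. The same difference had an unadjusted p of 0.146 and an adjusted p of 0.995 in limma (log2 fold change -0.15, SE 0.098), and without the 6 libraries the exact permutation p was 0.0794.

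**Figure D5:**
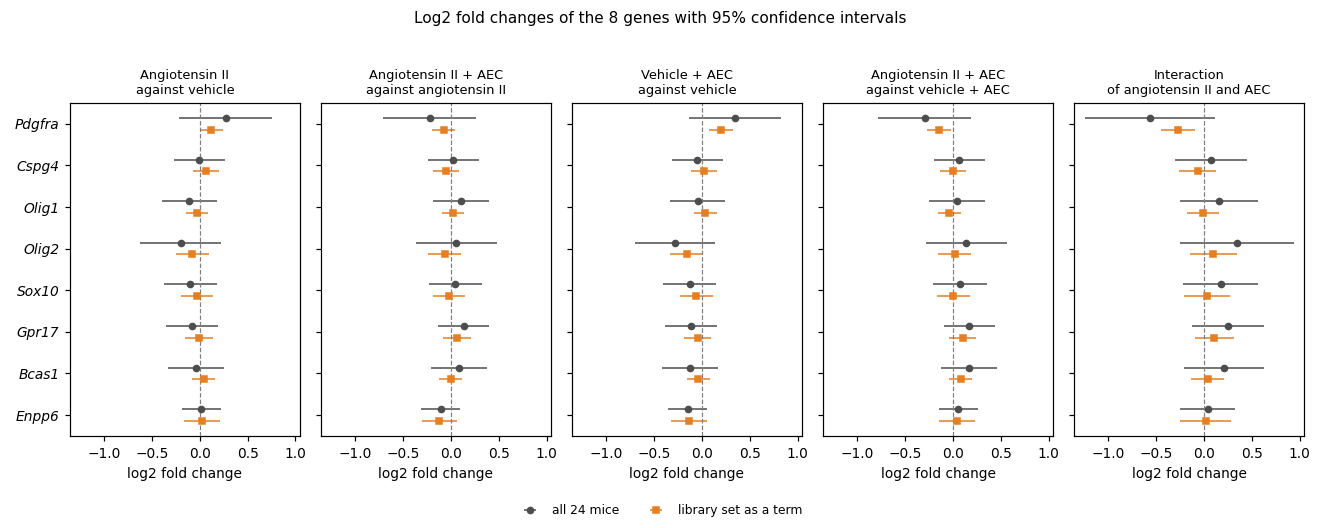
Log2 fold change of each gene (horizontal axis, with 95% intervals from limma) in the 5 comparisons, from the fit of all 24 mice (circles) and from the fit with the library set as a term (squares). With all 24 mice every interval includes 0, and with the library set as a term the intervals of Pdgfra exclude 0 in 3 of the 5 panels.

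Groups differed in how many of the 6 libraries they held, 2 each in Vehicle and Angiotensin II + AEC and 1 each in the others. In the fit of all 24 mice 1 of 8 genes, Pdgfra, was positive for Vehicle + AEC against Vehicle, with a median of -0.12 on the log2 scale, and 7 of 8 were positive for Angiotensin II + AEC against Vehicle + AEC, with a median of 0.07. For the interaction 7 of 8 were positive with a median of 0.16, and Pdgfra was the negative gene in both. With the library set as a term these counts were 3, 5 and 5, and the medians were -0.04, 0.01 and 0.03. For Angiotensin II against Vehicle 2 of 8 were positive, Pdgfra and Enpp6, with a median of -0.06, and with the library set as a term 4 of 8 were positive with a median of 0.01. For Angiotensin II + AEC against Angiotensin II 6 of 8 were positive, all but Pdgfra and Enpp6, with a median of 0.05, and with the library set as a term 2 of 8 were positive with a median of -0.03. The median over all tested genes stayed between -0.03 and 0.02 in both fits, and their share of positive values is not given here. Since 6 of the 8 genes were higher together in the 6 libraries, their signs are not independent.

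Pdgfra did not pass after adjustment in any fit, but the standard error of its differences between groups was 0.233 with all 24 mice and 0.060 with the library set as a term. With the set as a term, 0 of 27286 tested genes had an adjusted p under 0.05 in any of the 5 comparisons. With the set as a term, Pdgfra was 1.15-fold higher (95% interval 1.05 to 1.25) in Vehicle + AEC than in Vehicle, with an unadjusted p of 0.00335 and an adjusted p of 0.9999 in limma. It ranked 54 of 27286 genes by p, and 3.54% of genes had an unadjusted p under 0.05 in this fit. Angiotensin II + AEC against Vehicle + AEC gave 0.901-fold (0.827 to 0.982, unadjusted p = 0.0200, background 4.01%). The interaction was -0.27 on the log2 scale (SE 0.085, unadjusted p = 0.00424, background 3.41%), with adjusted p values of 0.9997 and 0.99997 in limma. The other 7 genes had an unadjusted p of 0.0697 or more in all 5 comparisons of this fit, where the background was 3.46% for Angiotensin II against Vehicle and 3.90% for Angiotensin II + AEC against Angiotensin II.

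Among the 18 other libraries alone, Pdgfra was 3.28 to 3.57 FPKM in Vehicle (n = 4), 3.46 to 3.75 in Angiotensin II (n = 5), 3.35 to 4.30 in Vehicle + AEC (n = 5) and 3.48 to 3.79 in Angiotensin II + AEC (n = 4). The highest values, above 4 FPKM, were in Vehicle + AEC, and that group still overlapped Vehicle. Its mean was 3.89 ± 0.401 FPKM against 3.38 ± 0.134 FPKM in Vehicle, with p = 0.0476 in the two-sided exact permutation test over 126 splits. Olig2 went the other way, with 14.8 ± 1.55 FPKM against 17.6 ± 2.03 FPKM (exact permutation p = 0.0714). Limma on these 18 libraries gave unadjusted p values of 0.00810 for Pdgfra and 0.0170 for Olig2, an adjusted p of 1 for both, and a background of 4.18%. The interaction of Pdgfra was -0.19 (SE 0.091, unadjusted p = 0.0513 in limma) in these libraries. Mitochondrial genes held 5.04% to 5.45% of fragments in the Vehicle + AEC libraries of this comparison and 5.29% to 5.58% in those of Vehicle. The part of these shares was not tested.

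The ratio of the neighbouring bHLH genes in these 18 libraries was picked out after its values were seen, and it was not tested. Olig1 to Olig2 was 3.22 to 3.64 in Vehicle, 3.42 to 3.92 in Angiotensin II, 3.69 to 4.41 in Vehicle + AEC and 3.71 to 4.70 in Angiotensin II + AEC. The mice with AEC lay above the 4 Vehicle mice and overlapped those with angiotensin II alone. How many other ratios of genes separate these mice as well was not computed, so no effect of AEC is read from it. Between Vehicle + AEC and Vehicle in these libraries, Olig1 differed by 0.003 and Olig2 by -0.25 on the log2 scale. For that pair of groups the ratio therefore restates the Olig2 difference given above. In the 6 libraries the ratio was 2.88 to 3.45, with a median of 3.26 against 3.78 in the 18.

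Other genes of the pathway gave few differences between the groups. With all 24 mice in limma, 0 of 14 OPC-enriched genes, 0 of 12 mature myelin genes and 0 of 5 PDGF ligands with the other PDGF receptor had an unadjusted p under 0.05 in any of the 5 comparisons. Of 12 committed precursor and newly formed oligodendrocyte genes, 1 was higher and 1 lower with Angiotensin II + AEC than with Angiotensin II: the small GTPase gene Rras2 (0.19, unadjusted p = 0.0297) and the sialidase gene Neu4 (-0.21, unadjusted p = 0.0420). Of 9 transcriptional drivers of differentiation, 1 was higher in Vehicle + AEC than in Vehicle, the Sox10 relative Sox8 (0.16, SE 0.057, unadjusted p = 0.0112). Of 8 inhibitors of differentiation, 1 was lower there, the Notch target Hes1 (-0.29, SE 0.138, unadjusted p = 0.0494), which also had an interaction of 0.46 (SE 0.195, unadjusted p = 0.0259). All of these had an adjusted p of 0.931 or more. The log2 medians of these 6 lists lay between -0.07 and 0.11 in the 5 comparisons.

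Of the other cell markers, 0 of 9 mural, 0 of 6 astrocyte, 0 of 6 neuron, 0 of 6 microglia and 0 of 4 Schwann cell markers passed an unadjusted p of 0.05 in any of the 5 comparisons with all 24 mice in limma. Fibroblast markers, of which 8 were measured, had Lum lower in Vehicle + AEC than in Vehicle (-0.34, unadjusted p = 0.0269) and the collagen gene Col1a1 higher in Angiotensin II + AEC than in Vehicle + AEC (0.60, unadjusted p = 0.0229). Col1a1 also had an interaction of 0.78 (unadjusted p = 0.0345). Pdgfra, which fibroblasts express too, had estimates of the opposite sign to Col1a1 in both. In Vehicle + AEC 0 of 8 fibroblast markers lay above Vehicle, where Pdgfra was 0.34 higher, and with the library set as a term 3 of them, Col1a1, Dcn and Lum, had an unadjusted p under 0.05, all lower. The part of fibroblasts in the Pdgfra values was not tested.

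Over the mice, the genes followed each other little once the means of each group and library set were removed. Pearson's r over the 24 mice, given as a description, was 0.58 for Olig1 with Cspg4 and 0.55 for Olig1 with its neighbour Olig2. Bcas1 had r = 0.39 with Olig1, 0.38 with Sox10 and -0.14 with Enpp6, while Pdgfra had -0.14 with Olig2 and 0.19 with Cspg4. Of all genes with a mean of at least 1 FPKM, the 3 most like Bcas1 were Urm1 (r = 0.86), the myelin gene Mbp (r = 0.83) and Taf13 (r = 0.82). Those most like Pdgfra were Plppr1 (r = 0.81), Cpsf2 (r = 0.79) and Trak2 (r = 0.78), and those most like Olig2 were Letmd1 (r = 0.83), Coro2b (r = 0.75) and Wdr83 (r = 0.75). For Enpp6 they were Pcdhb12 (r = 0.74), Zfp626 (r = 0.73) and Ephx4 (r = 0.71). With the means of group and library set left in, the 3 most like Bcas1 were the mature myelin genes Mbp, Cnp and Mag (r = 0.97 for each). All genes of a mouse come from 1 library, and so share its depth and base composition.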

How the data were processed

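Poly(A)-selected RNA of a brain hemisphere of each mouse was sequenced on an Illumina instrument. Reads were placed on the mouse reference that Ensembl provides, and the authors deposited FPKM per gene with the gene length used. Submitters' processing notes name GRCm38 (mm10) and DESeq 1.10.1. The aligner, the counter and the use of strand are not given in the sources used here. FPKM times gene length came out as whole multiples of the value of 1 read for 100% of values (within 0.1 read), which gave 16536449 to 25308700 fragments per mouse. Depth limits Enpp6 most, and intervals cover the spread between mice.

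Groups and replicate numbers came from the sample labels. Genes above 0 in at least 6 of 24 mice were fitted with limma 3.58.1 (R 4.3.3) on log2(FPKM + 0.1), all 4 groups in 1 fit, with a trend on mean level and Benjamini-Hochberg adjustment over 27286 genes. Fold changes understate those of low genes. Single genes were also compared with the exact permutation test over mice (924 splits). The 6 libraries were set apart at the widest gap in total FPKM.

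The 8 genes, the 12 gene lists and the tests were chosen with earlier results of these data known. All 8 genes are named in every comparison. From a list, genes with an unadjusted p under 0.05 are counted by direction and the one with the lowest p is named. For likeness, the 3 genes with the highest Pearson correlation are named. Genes that show the split of a list between the library sets were picked after their values were seen. The alternatives were a pseudocount of 1 or 0.01, no filter, a mean FPKM of at least 1, the compared groups only, the replicate number as a block, median-ratio scaling, voom on recovered reads, array weights, the library set as a term, the other 18 libraries only, and each mouse left out in turn. The library set with median-ratio scaling, and the permutation test over the 18 libraries, were added after seeing the data. GC content came from GENCODE M21 transcripts, which have the same coordinates as the deposited table for all 8 genes. Figures were drawn with Python 3.11.15 and matplotlib 3.10.9.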

Additional observations from a re-analysis of the deposited data

Results flagged for a closer look

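In groups of 6 mice, 9 of 32 sets of values for the 8 genes had a highest or lowest mouse whose gap to the next, as a share of the range, exceeded Dixon's 95% critical value, a limit that chance passes in about 1 of 20 groups. All 9 were in the 6 libraries of high total FPKM, and in the groups that hold 1 such library. The share of all tested genes past this limit was not computed, so the count cannot set these 8 genes apart. For scale, the library sets did not overlap for 51.0% of tested genes with a mean of at least 1 FPKM. Angiotensin II replicate 5 had the lowest Pdgfra value of its group, 2.20 FPKM, and the highest values of Cspg4 (2.37 FPKM), Olig1 (85.2 FPKM), Olig2 (24.8 FPKM) and Bcas1 (87.9 FPKM). Vehicle + AEC replicate 6 had the highest Cspg4 (2.37 FPKM), Olig1 (94.5 FPKM), Olig2 (27.4 FPKM) and Bcas1 (79.2 FPKM) values of its group. In Vehicle and Angiotensin II + AEC, which hold 2 of these libraries each, no mouse passed the limit for any of the 8 genes. The measure can miss 2 mice that lie out together, because each is the nearest value of the other. Pdgfra in Vehicle was 1.78 and 1.79 FPKM in these 2 libraries and at least 3.28 FPKM in the others. The lack of flags in these groups is therefore no sign that their libraries are alike.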

How the results depend on the processing

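The counts of genes with an unadjusted p under 0.05 among the 8 were 0 in all 5 comparisons with a pseudocount of 1 or 0.01, no filter, a mean FPKM of at least 1, the compared groups only, median-ratio scaling or voom on recovered reads. For Vehicle + AEC against Vehicle the count was 1 with array weights (Olig2), 1 with the library set as a term (Pdgfra), 2 with the other 18 libraries only (Pdgfra and Olig2) and 1 with the set and median-ratio scaling together. For Angiotensin II + AEC against Vehicle + AEC, and for the interaction, it was 1 with the set as a term and 1 with the set and scaling (Pdgfra). With single mice left out it ranged from 0 to 2 for Vehicle + AEC against Vehicle (2 without Vehicle + AEC replicate 6, Pdgfra and Olig2) and from 0 to 1 for the interaction (1, Pdgfra, without that mouse or without Angiotensin II replicate 5). The count of all genes with an adjusted p under 0.05 was 1 for the interaction with array weights. It ranged from 0 to 1 for Angiotensin II + AEC against Vehicle + AEC with single mice left out (1 without Vehicle + AEC replicate 1). The cause was not tested.

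The replicate number as a block gave counts of 2 (Pdgfra and Olig2), 1 (Pdgfra) and 1 (Pdgfra) for Vehicle + AEC against Vehicle, Angiotensin II + AEC against Vehicle + AEC and the interaction. The numbers were not taken to pair the mice. Of 36 same-numbered pairs, 28 had a correlation of deviations from group means over 0.1, not all of them (lowest -0.224). The number of mice that correlated best with their own number in every other group at once was 0. Best matches in single groups were not counted. The median correlation was 0.352 over same-numbered pairs and 0.0697 over other pairs. The 6 libraries all carry the numbers 5 or 6 and the library set was not removed, so these correlations cannot decide whether the numbers pair the mice. Of 1432 single values of the 8 genes under the alternatives, 80 changed sign and 17 passed 0.05, while 0 reversed past the threshold. Of the sign changes, 12 came with the library set as a term, 17 with the other 18 libraries only, 12 with the set and scaling together and 31 with single mice left out.

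These limits bear on the values. The library set was found in the data and has no name in the labels, and each group holds 1 or 2 of its libraries, so the treatment estimates move with how it is handled. Libraries that share a group are separate mice by their labels. The tissue was not sorted, and a change in 1 cell type would be diluted.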
